A study of Mus musculus with 15 samples.

Results

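The 78 mouse genes whose symbol begins with Mrpl or Mrps and a digit name the proteins of the mitochondrial ribosome. They were taken by that symbol pattern from 16809 genes in liver RNA-seq of 15 libraries, 49 with a large subunit name and 29 with a small subunit name. The libraries fell into 5 groups of 3, all from WT mice and all fed for 6 weeks. Control mice ate standard feed. Model mice ate a high-fat diet in which standard feed made up 78.8%, lard and egg yolk powder 10% each, cholesterol 1% and sodium cholate 0.2%. Mice of the remaining groups were on a high-fat diet too, its make-up not repeated in their labels, and received 1 plant flavonol by gavage. The daily dose was 200 mg/kg for quercetin, 100 mg/kg for kaempferol and 75 mg/kg for myricetin. Age, sex and strain are not given, nor whether the model mice were gavaged with vehicle. Nothing states that each library is a separate animal, so p-values measure the spread between these libraries.

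The mitochondrial ribosome translates the few proteins encoded by mitochondrial DNA, all of them membrane subunits of the oxidative phosphorylation complexes. Its RNAs are mitochondrial, but each of its proteins is encoded in the nucleus, made in the cytosol and imported. Liver cells are rich in mitochondria and use them for fatty acid oxidation, ketone body production and the urea cycle.

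Total counts were 15853767 to 17576502 per library, with 14615 to 14929 genes above 0 in each. Albumin, the main secreted protein of hepatocytes, took 4.28% to 7.86% of the counts, and 11 of 12 hepatocyte marker genes were in the table and passed the filter on low counts. Because the RNA is from whole liver, fewer cells of a type and less RNA per cell cannot be told apart.

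All 78 genes passed the filter on low counts, so no member was lost before testing among the 12658 genes tested. Transcript levels, given as the authors' TPM (a unit scaled by transcript length and library size), spanned a wide range. Mrps21 had the highest mean, 191 ± 32.5 TPM (SD, n = 15 libraries of all groups). Mrpl52 followed at 177 TPM, then Mrpl12 at 146, Mrpl14 at 142 and Mrpl30 at 107 TPM, and the per-library ranges of neighbours among these 5 overlapped. At the low end stood Mrpl41 at 9.11 TPM, Mrpl17 at 8.55, Mrpl35 at 6.66, Mrpl19 at 3.20 and Mrps25 at 2.38 TPM. The highest library of Mrpl19, 3.70 TPM, was below the lowest of Mrpl35, 5.29 TPM, while the other neighbours there overlapped. These levels depend on the counts and also on the effective lengths in the authors' annotation. Those lengths ran from 158 bases for Mrpl52 to 6455 bases for Mrpl17.

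**Figure D1:**
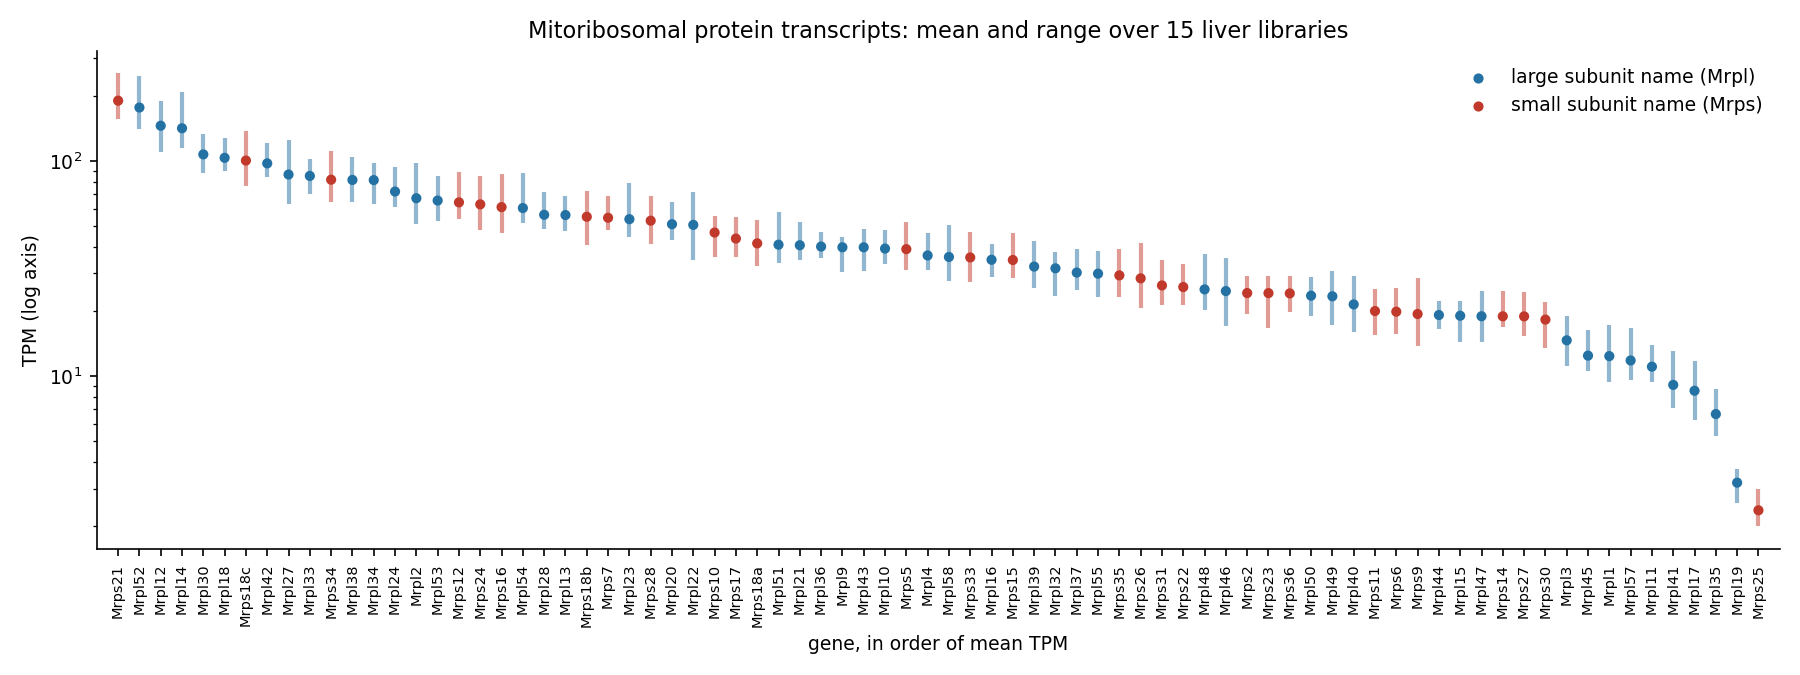
Levels of the 78 mitoribosomal protein genes in TPM (log axis), in order of their mean. Points are means and bars the lowest to highest of 15 libraries; large and small subunit names are mixed along the order, from Mrps21 at 191 to Mrps25 at 2.38 TPM.

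Promoter sequences are shown for the 4 genes with the smallest p in the comparison of quercetin with model, because these genes carry that result. Each is the 250 bases before the transcription start in the RefSeq promoter table (GRCm38.p6), written 5′ to 3′ on the gene's strand. The annotated start of the Mrpl2 gene, 46646172, lies inside its window, so that window reaches into the gene. The windows are chr17:46645971-46646220 on the + strand for Mrpl2, chr2:24975099-24975348 on the - strand for Mrpl41, chr2:130563507-130563756 on the + strand for Mrps26 and chr16:18876638-18876887 on the - strand for Mrpl40. Capitals mark matches on either strand to the letters searched: GGGGCGGGG, the core bound by SP1, and CCGGAAG, the core bound by ETS factors such as GABPA.
Mrpl2: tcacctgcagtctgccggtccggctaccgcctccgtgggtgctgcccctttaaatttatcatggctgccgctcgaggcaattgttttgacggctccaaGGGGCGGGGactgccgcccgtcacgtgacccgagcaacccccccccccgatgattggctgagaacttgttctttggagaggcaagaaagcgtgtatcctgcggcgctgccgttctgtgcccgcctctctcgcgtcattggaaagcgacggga
Mrpl41: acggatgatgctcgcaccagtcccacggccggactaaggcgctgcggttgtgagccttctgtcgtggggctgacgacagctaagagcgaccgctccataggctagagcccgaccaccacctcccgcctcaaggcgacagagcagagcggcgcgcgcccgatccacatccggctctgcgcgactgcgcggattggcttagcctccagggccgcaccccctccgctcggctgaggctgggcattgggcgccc
Mrps26: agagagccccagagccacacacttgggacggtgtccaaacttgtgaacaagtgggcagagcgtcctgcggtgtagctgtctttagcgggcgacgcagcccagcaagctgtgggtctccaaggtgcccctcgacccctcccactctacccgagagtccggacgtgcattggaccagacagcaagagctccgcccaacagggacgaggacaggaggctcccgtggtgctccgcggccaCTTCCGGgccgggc
Mrpl40: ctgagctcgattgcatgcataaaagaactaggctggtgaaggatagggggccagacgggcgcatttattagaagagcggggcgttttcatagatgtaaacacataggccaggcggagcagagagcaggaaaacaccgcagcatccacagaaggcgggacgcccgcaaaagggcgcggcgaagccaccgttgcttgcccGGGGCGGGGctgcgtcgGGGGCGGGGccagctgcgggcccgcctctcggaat

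Among these 4 windows, Mrpl2 held SP1 letters at -152 from the start, Mrpl40 held them at -52 and -35, Mrps26 held ETS letters on the opposite strand at -14, and Mrpl41 held no match. Promoters of 300 bases were found for 69 of the 78 genes. ETS letters were in 25 of the 69 (36.2%), against 17.9% of the 10173 promoters of genes tested. Those of YY1 (AAGATGGC), a zinc finger factor, were in 12 (17.4% against 4.60%) and those of NRF1, a regulator of nuclear genes for mitochondria, in 3 (4.35% against 2.03%). SP1 letters were in 13 (18.8% against 21.3%) and TATAAA in 4 (5.80% against 7.46%). A match describes letters in this window, not a bound site.

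Many members share a start region with another gene. A start on the opposite strand lay within 1000 bases for 26 of the 69 genes (37.7%), against 17.5% of all promoters compared. Mrpl46 and Mrps11, a large and a small subunit gene on chromosome 7, start 42 bases apart in opposite directions. Mrpl43 starts 116 bases from Twnk, the mitochondrial DNA helicase, and Mrps12 starts 147 bases from Sars2, the mitochondrial seryl-tRNA synthetase.

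The high-fat diet alone was compared with standard feed first. No member passed the threshold of 0.05 on the adjusted p (quasi-likelihood test of edgeR, adjusted by Benjamini-Hochberg over 12658 genes), where 4.46% of all genes did. DESeq2 also called 0, and 4 members had an unadjusted edgeR p under 0.05, beside 2743 of the 12658 genes tested. With an offset for transcript length, 1 member passed in edgeR: Mrpl27, at 0.41 ± 0.090 log2 (SE, adjusted p of 0.0190). Log2 fold changes were positive for 36 of 78 members, with a median of -0.013, and the median over all genes was -0.0082. The members' CPM (counts scaled to a common library size with TMM factors) lay wholly above the control libraries for 2 genes and wholly below for 8, shares under those of all genes (15.1% and 14.9%).

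Without that offset, the genes with the smallest p in each direction did not pass. Mrps26, a small subunit protein with no bacterial counterpart, had 16.7, 17.0 and 16.8 CPM in control and 13.4, 13.1 and 13.6 CPM in model libraries. The groups did not overlap, and the log2 fold change was -0.33 ± 0.12 (SE), with an adjusted p of 0.116 by edgeR. Mrpl27, a large subunit protein conserved in bacteria, had 29.0, 26.9 and 27.7 CPM in control and 35.8, 29.7 and 38.7 CPM in model libraries. All model libraries were higher, at a log2 fold change of 0.32 ± 0.13 (SE; edgeR adjusted p of 0.162). The divergent pair Mrps11 and Mrpl46 gave log2 fold changes of -0.33 ± 0.15 and 0.19 ± 0.14 (SE), neither past the threshold. Mrpl38 had a log2 fold change of -0.22 and Mrps10 one of 0.18.

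Quercetin was then compared with the model diet. Here 8 members rose and none fell by the same edgeR test, 10.3% of the 78, where 7.82% of all genes passed and 4.06% passed as higher. Among other genes under 1500 bases, the share called higher was above this 4.06% of all genes. Under 750 bases 12.4% of other genes and 4 of 30 members were called higher, and from 750 to 1500 bases 7.74% and 3 of 33. From 1500 to 3000 bases these were 3.56% and 1 of 11, and above 3000 bases 2.08% and 0 of 4. DESeq2 called the same 8 members and Mrpl17. In the authors' deposited table, 3 members were higher at q under 0.05 and none lower, where 957 of 16095 genes with a q-value were under 0.05. The members' share of all counts was 0.201% ± 0.00312 in model and 0.257% ± 0.00486 in quercetin libraries (SD, n = 3).

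Most members shared the direction. Log2 fold changes were positive for 69 of 78 (88.5%), against 50.9% of all genes, with a median of 0.21 against 0.0070 over all genes. Their quartiles were 0.11 and 0.33 log2, and the median SE was 0.12. CPM in the quercetin libraries lay wholly above the model libraries for 33 members (42.3%), against 15.4% of all genes. The median was 0.22 log2 over the 49 large subunit names, of which 6 rose, and 0.20 log2 over the 29 small subunit names, of which 2 rose. Over the 5 groups, the quercetin mean CPM was the highest for 54 members (69.2%), against 22.3% of all genes.

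**Figure D2:**
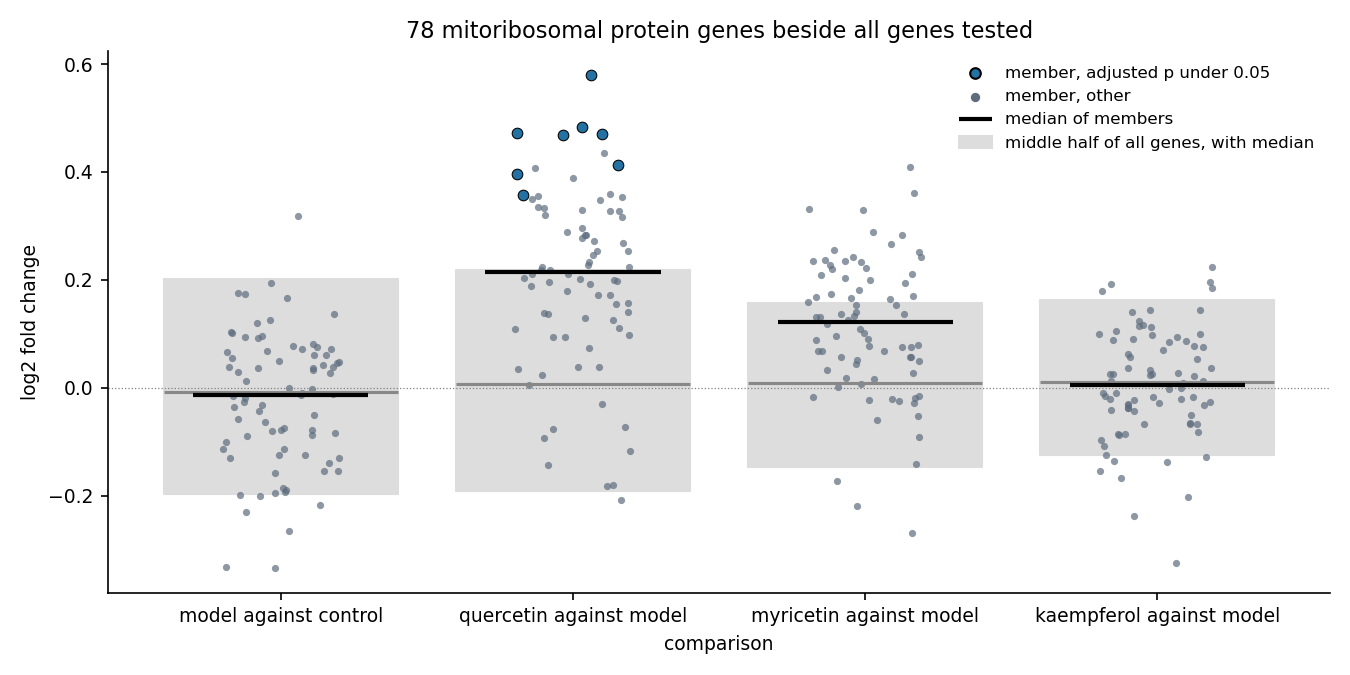
Log2 fold changes of 78 mitoribosomal protein genes (points) in 4 comparisons, with their median (black bar) beside the interquartile range and median of all genes tested (grey). The members' median is 0.21 for quercetin against model, 0.12 for myricetin and near 0 in the other comparisons, and the 8 genes past the threshold (blue) are all in the quercetin comparison.

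Among the large subunit proteins conserved from bacteria, Mrpl2, which lies near the peptidyl transferase centre, had the smallest p. It had 34.7, 37.9 and 41.3 CPM in model and 50.7, 52.7 and 54.2 CPM in quercetin libraries. All quercetin libraries stood above all model and control libraries, and the gene rose by 0.47 ± 0.10 log2 (SE; edgeR adjusted p of 0.00892). Mrpl14, a protein of the subunit interface, had 38.3, 36.4 and 41.7 CPM in model and 53.6, 52.1 and 56.9 CPM in quercetin libraries. The groups did not overlap, and the rise was 0.48 ± 0.13 log2 (SE; edgeR adjusted p of 0.0382). Mrpl12, part of the stalk that binds translation factors, had 74.8, 78.7 and 74.2 CPM in model and 95.2, 90.6 and 106 CPM in quercetin libraries. Quercetin replicate 8 was the highest, and the gene rose by 0.36 ± 0.10 log2 (SE; edgeR adjusted p of 0.0433).

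The other large subunit genes that rose encode proteins specific to mitochondria. Mrpl41 had 13.0, 12.6 and 15.3 CPM in model and 19.4, 19.8 and 21.9 CPM in quercetin libraries. This was the largest rise of the 8, at 0.58 ± 0.15 log2 (SE; edgeR adjusted p of 0.0229), with no overlap between the groups. Mrpl40 had 11.8, 13.3 and 11.9 CPM in model and 16.1, 15.8 and 16.8 CPM in quercetin libraries, a rise of 0.40 ± 0.11 log2 (SE; edgeR adjusted p of 0.0316). Mrpl52 had 19.4, 20.2 and 21.2 CPM in model and 26.8, 24.9 and 32.6 CPM in quercetin libraries, a rise of 0.47 ± 0.13 log2 (SE; edgeR adjusted p of 0.0420). Both genes were higher in every quercetin library, and replicate 8 was the highest for both.

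In the small subunit, Mrps26 had 17.0, 20.4 and 18.2 CPM in quercetin libraries, above the model libraries given earlier, and rose by 0.47 ± 0.12 log2 (SE; edgeR adjusted p of 0.0240). Its control libraries, at 16.7 to 17.0 CPM, stood just under the lowest quercetin library. Mrps9, a conserved protein of the small subunit, had 17.6, 16.5 and 16.0 CPM in model and 20.8, 23.1 and 22.8 CPM in quercetin libraries. It rose by 0.41 ± 0.12 log2 (SE), with an edgeR adjusted p of 0.0495, at the edge of the threshold. Strand of counting is not stated, and exons of Mrpl12, Mrpl14 and Mrps26 overlap a gene on the opposite strand, so reads of both cannot be told apart there.

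**Figure D3:**
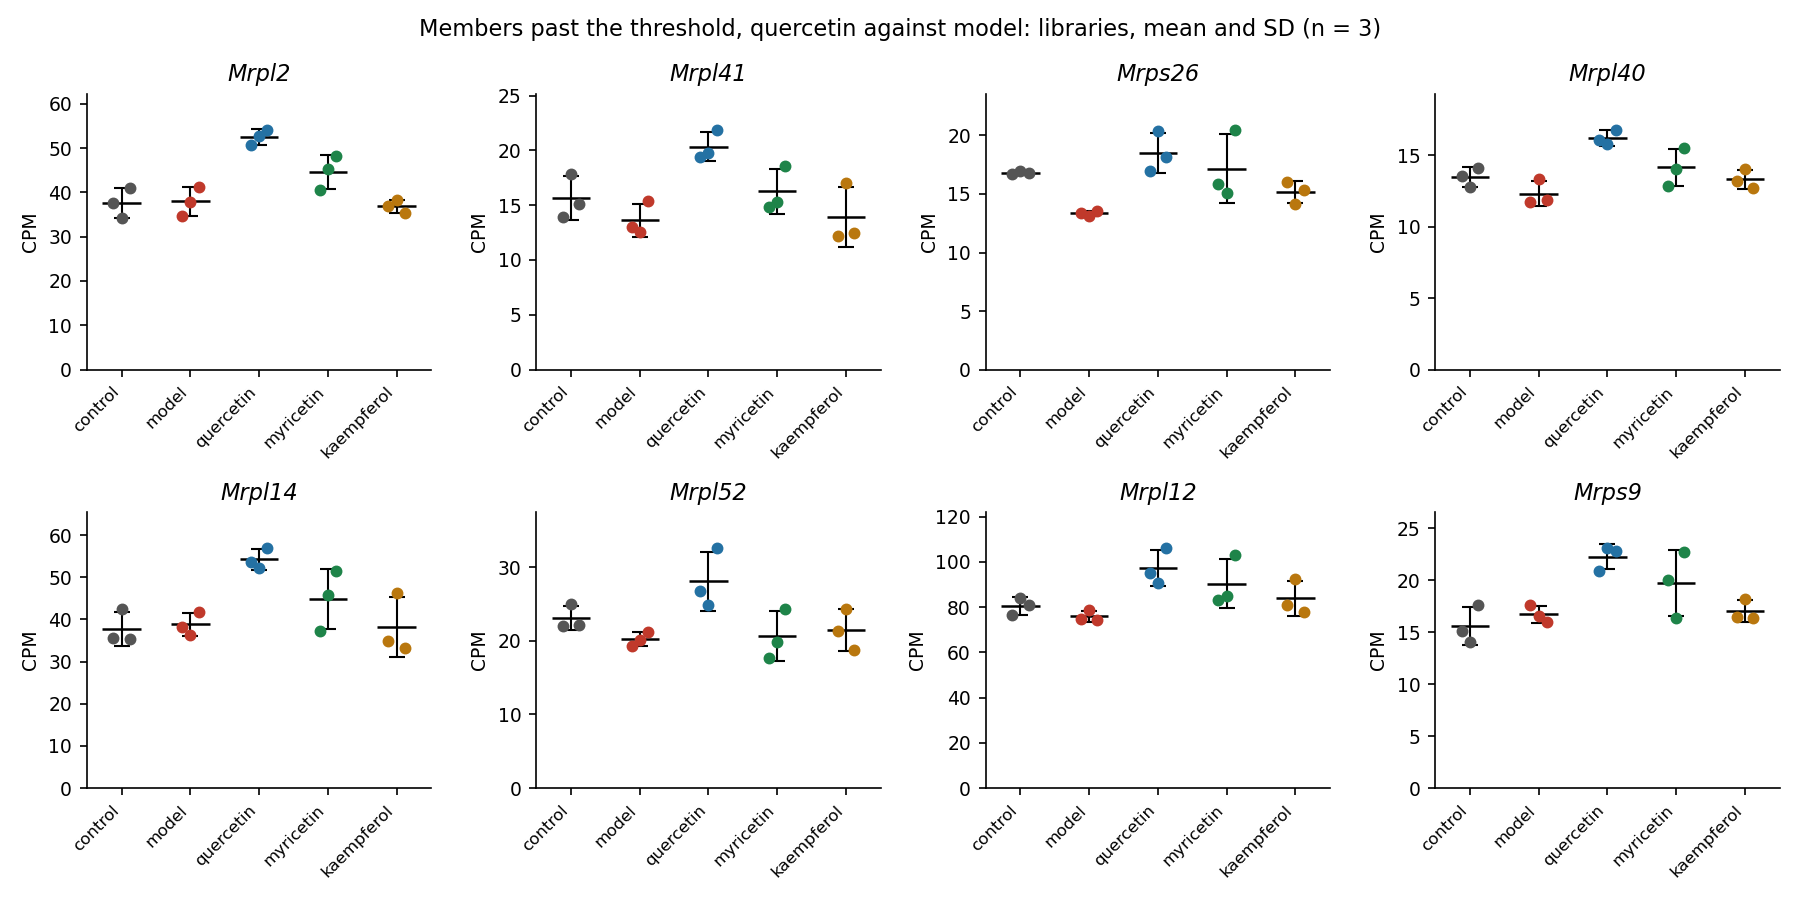
CPM of the 8 members past the threshold for quercetin against model, in each library of the 5 groups (points), with the mean and SD (n = 3). In each panel the 3 quercetin libraries lie above the 3 model libraries, while the place of the myricetin and kaempferol libraries varies by gene.

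With quercetin 9 members had a negative log2 fold change, named here after their values were seen: Mrpl3, Mrpl16, Mrpl19, Mrpl36, Mrpl44, Mrps2, Mrps22, Mrps25 and Mrps27. None passed. Mrpl44, whose protein resembles RNase III, was the only member with all quercetin libraries below all model libraries, where 14.2% of all genes were so. It had 18.4, 18.6 and 18.5 CPM in model and 16.6, 14.0 and 17.5 CPM in quercetin libraries (-0.21 ± 0.12 log2, SE; edgeR adjusted p of 0.296).

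Other members of known role did not pass with quercetin. Mrps18a, Mrps18b and Mrps18c are related proteins that stand at different places in the ribosome, and gave log2 fold changes of 0.039, 0.29 and 0.44 (SE 0.12, 0.10 and 0.18). Mrpl58, which releases stalled ribosomes, gave 0.21 ± 0.11 log2, and Mrps30, a protein now placed in the large subunit, gave 0.16 ± 0.11 log2 (SE). Mrps12, a protein of the decoding centre, gave 0.095 ± 0.12 log2, and Mrps36, also known as a part of the oxoglutarate dehydrogenase complex, gave 0.11 ± 0.18 log2 (SE). With an offset for transcript length, 3 of these turned negative: Mrps18a to -0.19, Mrps12 to -0.16 and Mrps36 to -0.16 log2.

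The calls depended on single libraries. Without model replicate 1, edgeR called 0 members; without model replicate 2 it called 1, and without model replicate 5 it called 2. Without quercetin replicate 2 it called 3, and without quercetin replicates 5 or 8 it called 2. Without control replicate 3 or kaempferol replicate 3 it called 5. No call held in all 15 such fits: Mrpl2 passed in 14, Mrpl41 and Mrps26 in 11, and Mrps9 in 2. Without myricetin replicate 8, 12 members passed. The members' median stayed between 0.16 and 0.25 log2 in these fits.

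The change moved with transcript length. Members are short, with a median effective length of 809 bases against 2545 over all genes tested. Under 750 bases, the median log2 fold change with quercetin was 0.28 over 30 members and 0.27 over 776 other genes. From 750 to 1500 bases it was 0.21 over 33 members and 0.14 over other genes, and from 1500 to 3000 bases 0.20 over 11 members and 0.025 over other genes. Above 3000 bases it was 0.12 over 4 members and -0.095 over other genes. With an offset for length in each library, the members' median was 0.046 log2 and only Mrpl41 and Mrpl17 passed. The part of transcript length in the result was not tested.

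**Figure D4:**
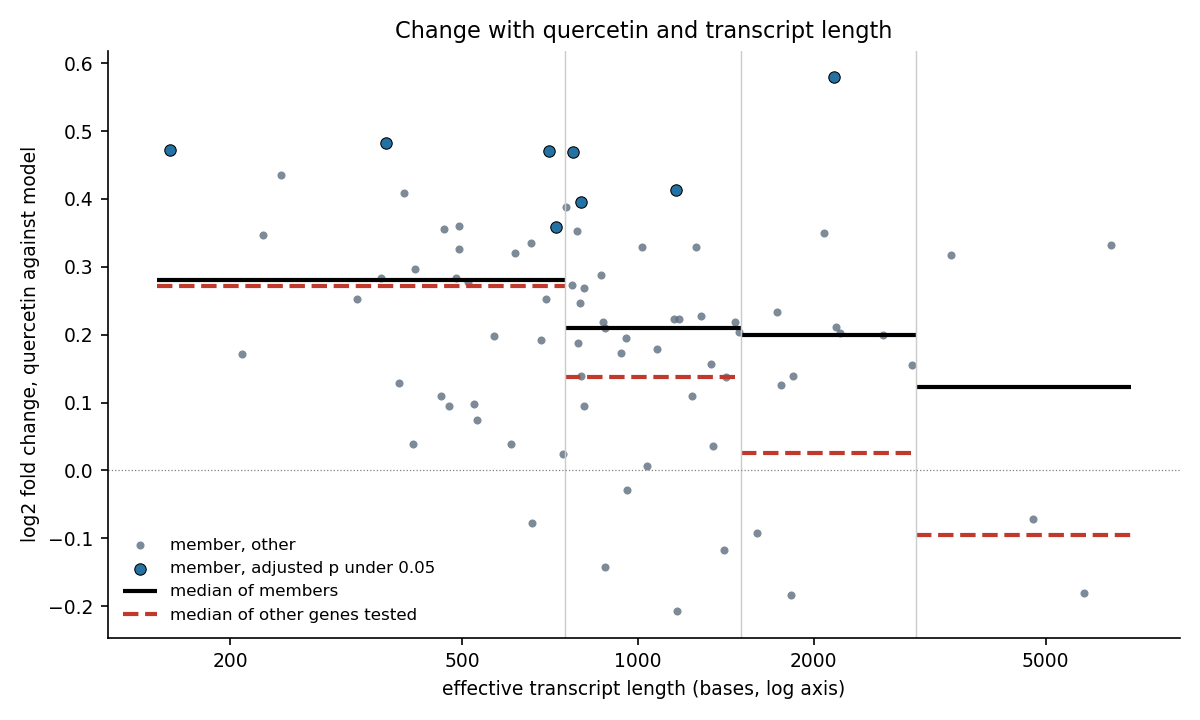
Log2 fold change of each member (points), quercetin against model, by effective transcript length in bases (log axis). Bars are medians within 4 length ranges, black for members and dashed red for other genes; both are near 0.28 under 750 bases, and above 1500 bases the members' medians stand above those of other genes.

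In TMM-scaled CPM, the libraries differed in the same way within groups. The members' median deviation from their mean over 15 libraries was 0.12, 0.066 and 0.26 log2 in quercetin replicates 2, 5 and 8, and 69 of 78 members were above their own 15-library median in replicate 8. It was -0.075, -0.016 and 0.19 log2 in myricetin replicates 5, 7 and 8, and -0.11, 0.075 and -0.14 log2 in kaempferol replicates 3, 5 and 8. Other genes under 750 bases deviated by -0.12, -0.042 and 0.13 log2 in the same myricetin libraries and by -0.12, 0.11 and -0.18 log2 in the kaempferol ones. Kaempferol replicate 5 thus stood above both other kaempferol libraries, and myricetin replicate 8 above both other myricetin libraries, for members and short genes alike. This order depends on the scale. As an unscaled share of counts, members were lowest of the quercetin libraries in replicate 8 (0.252%). The share was still highest in its group for myricetin replicate 8 (0.248%) and kaempferol replicate 5 (0.214%). Summed TPM was lowest in its group for quercetin replicate 8 (4069) and kaempferol replicate 5 (3351), and highest for myricetin replicate 8 (3928).

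**Figure D5:**
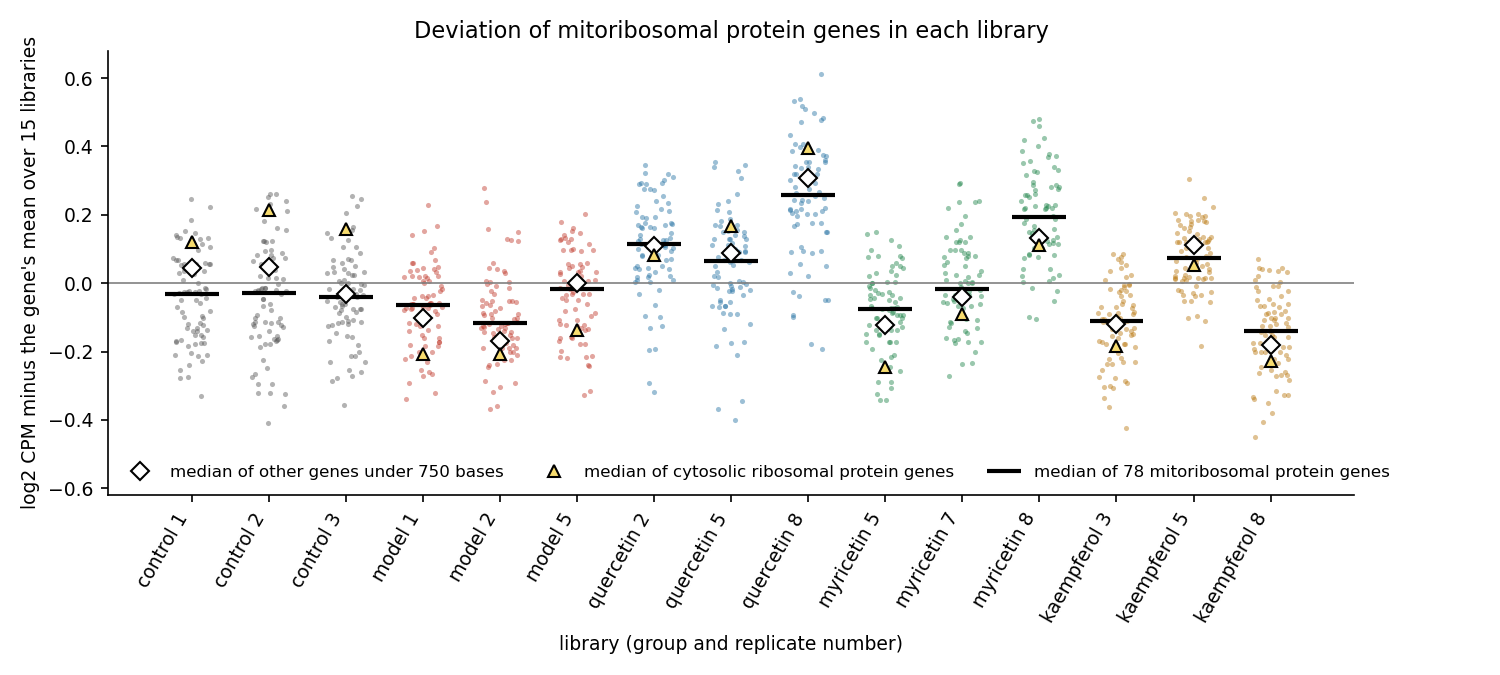
Deviation of each of 78 members in each library from its mean over 15 libraries (points, log2 CPM), with the members' median (bar), the median of other genes under 750 bases (diamond) and that of cytosolic ribosomal protein genes (triangle). Quercetin replicate 8 and myricetin replicate 8 are the highest for members, at 0.26 and 0.19.

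With myricetin, no member passed by edgeR or DESeq2, where 0.395% of all genes did by edgeR. In edgeR, 10 members had an unadjusted p under 0.05, all higher, beside 1505 of the 12658 genes tested in either direction. Log2 fold changes were positive for 64 of 78 members (82.1%, against 51.4% of all genes), with a median of 0.12. In all, 11 members lay wholly above the model libraries, 14.1% against 9.54% of all genes. The median was 0.022 log2 without myricetin replicate 8. Mrps26 had 15.8, 15.1 and 20.5 CPM, of which replicate 8 was the highest, and Mrps35 had 21.1, 18.9 and 26.6 CPM. Their log2 fold changes against model were 0.36 ± 0.12 and 0.33 ± 0.12 (SE; edgeR adjusted p of 0.225 and 0.255). Mrpl39 gave 0.24 log2, and Mrps25, Mrpl28 and Mrpl42 gave -0.27, -0.22 and -0.17 log2.

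With kaempferol, no member passed by edgeR or DESeq2, where 0.0395% of all genes did by edgeR. In edgeR, 2 members had an unadjusted p under 0.05, both lower, beside 1475 of the 12658 genes tested in either direction. Of 78 members, 39 had a positive log2 fold change, with a median of 0.0044. Mrps25 had 13.1, 11.6 and 12.6 CPM in model and 9.02, 11.0 and 9.88 CPM in kaempferol libraries. The groups did not overlap, at -0.33 ± 0.15 log2 (SE; edgeR adjusted p of 0.399). Mrps27 gave -0.24 log2, Mrpl27 -0.20, Mrps23 0.22, Mrps30 0.19 and Mrps26 0.18 log2.

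The 8 genes that rose with quercetin had other values in the other groups, whose doses differ and which share the model libraries, so these are set side by side only. Log2 fold changes against model with myricetin ran from 0.027 for Mrpl52 to 0.36 for Mrps26, with 0.24 for Mrpl2 and 0.25 for Mrpl12 and Mrpl41. With kaempferol they ran from -0.043 for Mrpl2 to 0.18 for Mrps26, with 0.14 for Mrpl12 and 0.11 for Mrpl40. The diet itself gave 0.012 for Mrpl2, 0.038 for Mrpl14, 0.10 for Mrps9, -0.33 for Mrps26, -0.084 for Mrpl12, -0.13 for Mrpl40, -0.19 for Mrpl52 and -0.20 for Mrpl41 (log2, model against control).

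Against the standard-feed controls, 8 members were higher with quercetin and none lower by edgeR, where 11.6% of all genes passed and 5.62% passed as higher. Mrpl27 had 42.0, 37.7 and 47.0 CPM with quercetin, all above the controls, a rise of 0.60 ± 0.13 log2 (SE; edgeR adjusted p of 0.00794). Mrpl2, Mrpl14, Mrpl17, Mrpl46, Mrps9, Mrps18b and Mrps35 were the others, with log2 fold changes of 0.33 to 0.52. Without control replicate 2 or quercetin replicate 2, edgeR called 3, and without control replicates 1 or 3, model replicate 2 or quercetin replicate 8 it called 5. Mrps35 alone passed with myricetin, by 0.45 ± 0.12 log2 (SE; edgeR adjusted p of 0.0262), where 9.2% of all genes did, and edgeR called 0 members without control replicates 2 or 3 or myricetin replicate 8, 2 without control replicate 1, quercetin replicate 5, myricetin replicate 5 or kaempferol replicate 8, and 3 without myricetin replicate 7. No member passed with kaempferol by edgeR or DESeq2, where 13.4% of all genes did by edgeR. In edgeR, 4 members had an unadjusted p under 0.05, beside 3702 of the 12658 genes tested. Without model replicate 2 or kaempferol replicate 5, 1 member passed. Over the 5 groups, 7 members (8.97%) differed by edgeR, against 16.1% of all genes, and 1 to 9 did when a library was left out, with 1 without quercetin replicate 8.

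The members' median SD within groups was 0.144 log2, against 0.201 log2 over all genes, which were not matched to the members in level. Over the 15 libraries, the median correlation between members was 0.46, a description of libraries that share depth and groups, and 87.6% of pairs were above 0.

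Other genes of mitochondrial translation were described from lists by role, in which a gene counts as changed where edgeR's adjusted p passed. Of 5 other proteins of the mitochondrial ribosome, 1 rose with quercetin: Gadd45gip1, from 29.0 to 41.7 CPM, by 0.52 ± 0.11 log2 (SE). Of 16 translation factors tested, Pdf, which removes the formyl group from new proteins, rose by 0.40 log2. The elongation factor Gfm1 and the related factor Gfm2 fell by 0.40 and 0.29 log2. None of 24 assembly factors, 20 tRNA synthetases and amidotransferase subunits, or 10 genes of mitochondrial DNA transcription and replication passed for quercetin against model, with medians of 0.098, 0.015 and -0.033 log2. Higher with quercetin than in control were Tsfm, an elongation factor, by 0.54 log2, Sars2 by 0.43 and Polg2, a subunit of the mitochondrial DNA polymerase, by 0.98 log2. Twnk was lower than control with quercetin, myricetin and kaempferol, at -0.39, -0.45 and -0.42 log2. Of the assembly factors, Gtpbp10 was higher than control with myricetin, at 0.39 log2, and Mrm1 and Ybey were lower with kaempferol, at -0.96 and -0.66 log2. None of 9 regulators of mitochondrial biogenesis passed for quercetin against model, and Ppargc1b, a transcriptional coactivator, was higher with quercetin than in control, by 0.91 log2. With the diet, 1 did: Esrra, a nuclear receptor of energy metabolism, fell by 0.51 log2, from 46.3 to 32.5 CPM, and it was also lower than control with myricetin and kaempferol, at -0.63 and -0.56 log2.

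Cytosolic ribosomal protein genes, counted by symbol, are a separate family with a separate ribosome. Of 77, 12 fell with the diet and 34 rose with quercetin against model, with medians of -0.34 and 0.39 log2. A wider symbol pattern, run first, gave the same counts over 89 genes and medians of -0.32 and 0.37 log2. Of all genes, 4.46% and 7.82% passed in these comparisons, in either direction. The mitoribosomal medians were -0.013 and 0.21 log2, and those of the 776 other genes under 750 bases were -0.11 and 0.27 log2. The families were not matched for transcript length, and the difference between them was not tested.

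Markers of other liver cells were set beside the members, and few passed for quercetin against model. For quercetin against model, 0 of 9 Kupffer cell and macrophage, 8 endothelial and 8 stellate cell markers passed. All 8 endothelial and all 8 stellate markers had negative log2 fold changes, with medians of -0.27 and -0.29. Most Kupffer, bile duct cell and hepatocyte markers tested had positive values, while all erythroid and adipocyte markers tested had negative ones. No bile duct cell, erythroid or adipocyte marker passed. Summed CPM of the endothelial markers was 154 to 212 in model and 122 to 178 in quercetin libraries, and that of the stellate markers 217 to 250 and 139 to 225. Of 9 T, NK and B cell markers, only Cd4 passed, with a fall of 1.89 log2. In that list 5 of the 9 had positive log2 fold changes, and the median was 0.054. Of 3 neutrophil markers tested, S100a8 and S100a9 rose, while Ly6g and Retnlg were too low to test. Both that rose were at low levels, with means from 0.40 to 1.82 CPM for S100a8 and from 0.94 to 2.94 CPM for S100a9. None of 11 hepatocyte markers passed, and their summed CPM was 82697 to 102000 in model and 99071 to 111016 in quercetin libraries.

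With the diet, 4 Kupffer and 3 endothelial markers, Cd4 and the adipocyte markers Cidec and Cfd rose, and Hnf4a, a hepatocyte transcription factor, fell. Only 3 adipocyte markers were tested, since Adipoq and Plin1 did not pass the filter and Lep was absent. Cfd varied widely between model libraries, at 9.33 ± 12.3 CPM (SD, n = 3). Against control, 6 of 9 Kupffer and 2 of 8 endothelial markers were higher with quercetin, 6 and 7 with myricetin, and 9 and 7 with kaempferol, and Hnf4a was lower in each. The part of cell makeup in the members' values was not tested.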

How the data were processed

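Liver RNA of 15 libraries was analysed from 1 deposited table. It holds, per the file headers, estimated counts (RSEM read counts, 5.37% not whole), FPKM and TPM per gene, and the authors' log2 fold changes and q-values. The submitters' processing notes name HISAT2 2.1.0, Bowtie2 2.3.4.3, RSEM 1.3.1, DESeq2 1.4.5 and build GRCm38.p6; library type and strand are not given in the sources used here. The deposited values per group average, in 15 columns, were not used. Counts were rounded and filtered with filterByExpr (minimum 10), leaving 12658 genes, and scaled by TMM. They were fitted with edgeR 4.0.16 (robust quasi-likelihood, 1 mean per group over 15 libraries, 10 residual degrees of freedom; limma 3.58.1, R 4.3.3), with Benjamini-Hochberg adjustment over all genes. SE is the size of the log2 fold change over the root of F. The fit was tested on simulated data. DESeq2 1.42.0, RLE factors, no filter, only the compared groups, a replicate block, a length offset and leaving out each library were tried. Effective length was derived from counts and FPKM at or above 0.5 FPKM. The table places 6 members (Mrpl22, Mrpl40, Mrps10, Mrps18b, Mrps23, Mrps35) on alternate scaffolds, and 33 of 78 have exons overlapping another gene in the GENCODE annotation. Count precision is covered by totals of 15853767 to 17576502 counts; intervals are SDs and SEs between libraries.

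Members and lists were chosen with earlier results of these data known. Named genes were all members past the threshold against model or in the diet comparison, otherwise the 3 with the smallest p per direction, the 5 highest and lowest in TPM, and 9 genes of known role. The cytosolic ribosomal list was narrowed, after its counts were seen, to leave out kinases, copies and pseudogenes.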

Additional observations from a re-analysis of the deposited data

How the results depend on the processing

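For the counts of members past the threshold, quercetin against model gave 8, with 5 without a filter on low counts, 2 with the length offset, 9 with DESeq2 and 0 with the replicate block. Quercetin against control gave 8, with 4 from only the compared groups and 5 with the offset. Myricetin against control gave 1, with 0 from only the compared groups and 4 with the offset. Kaempferol against control gave 0, and 1 from only the compared groups; model against control gave 0, and 1 (Mrpl27) with the offset. Over the 5 groups it was 7. The replicate block gave 0 in quercetin and in myricetin against control and over the 5 groups. Of 14 same-numbered pairs of libraries, 0 correlated above 0.1 (-0.238 to 0.0978). Pairs with different numbers reached both lower and higher values. With 3 libraries a group, these correlations cannot decide whether replicate numbers pair the libraries, and the labels do not state it. Leaving out 1 library gave 0 to 12 for quercetin against model, 3 to 11 against control, 0 to 3 for myricetin and 0 to 1 for kaempferol against control, and 1 to 9 over the 5 groups; the other counts stayed 0. The members' median for quercetin was 0.046 log2 with the offset and 0.16 to 0.25 leaving out a library; for myricetin it was 0.022 to 0.18, lowest without myricetin replicate 8. Signs turned for several genes. With the length offset, log2 fold changes for quercetin were -0.16 for Mrps12, -0.19 for Mrps18a and -0.16 for Mrps36; Mrpl52 gave 0.0078 with the diet and -0.070 with myricetin, and Mrps9 -0.00252 with kaempferol. With the block, Mrpl14 gave -0.029 with the diet, Mrpl52 -0.061 with myricetin, Mrpl41 -0.028 and Mrps9 -0.053 with kaempferol. Leaving out a library, the ranges were -0.025 to 0.10 for Mrps18a and -0.044 to 0.24 for Mrps36 with quercetin, -0.0097 to 0.13 for Mrpl14 and -0.051 to 0.078 for Mrpl2 with the diet, and -0.11 to 0.13 for Mrpl52 with myricetin. With kaempferol they were -0.19 to 0.062 for Mrpl14, -0.10 to 0.017 for Mrpl2, -0.15 to 0.12 for Mrpl41, -0.019 to 0.17 for Mrpl52 and -0.030 to 0.063 for Mrps9. Of 1155 gene values under alternatives, 1052 kept direction and side of the threshold, 72 kept direction but no longer passed, 1 newly passed and 30 turned sign. The cause of these shifts was not tested. With 3 libraries a group and a median SE of 0.12 log2, small changes of single genes are not resolved.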
